A study of Mus musculus with 12 samples.

Results

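Inflammasomes are protein platforms on which macrophages switch on inflammatory caspases, and pyroptosis is the lytic cell death that follows. Their core genes were followed here in peritoneal macrophages of mice of 2 genotypes on 2 diets. The group holds 10 genes, taken by symbol from the authors' count table: the sensors Nlrp3, Aim2, Nlrc4 and Naip5, the NLRP3 partner Nek7, the adaptor Pycard, the caspases Casp1, Casp4 and Casp8, and the pore protein Gsdmd. All 10 were found among the 12339 genes listed. The 12 libraries fall into 4 groups of 3: wild type (WT) on chow, WT on a high fat diet (HFD), meKO on chow and meKO on HFD. From the title of the series, which is about protein kinase C epsilon in myeloid cells, meKO is read as the myeloid deletion of its gene, Prkce; the labels name no Cre line. Mice of every group, chow controls and WT included, received AAV8PCSK9 at 8 weeks of age, a virus that makes the liver lose its LDL receptor, and the cells were drawn into the peritoneum with thioglycolate after 4 weeks. The labels describe 8 animals of each genotype and do not tie the libraries to them, so p-values measure the spread between these libraries.

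An inflammasome forms when a sensor meets its trigger: cytosolic DNA for AIM2, bacterial flagellin and secretion system proteins for the NAIP and NLRC4 pair, and ion flux or membrane damage for NLRP3, which needs the kinase NEK7. Most sensors recruit ASC, the product of Pycard, which gathers and activates caspase-1. Caspase-1 matures interleukin-1 beta and interleukin-18 and cuts gasdermin D, whose free fragment opens pores in the plasma membrane; caspase-4 of mice, also called caspase-11, binds lipopolysaccharide in the cytosol and cuts gasdermin D as well. Caspase-8 links the same machinery to apoptosis. Cholesterol crystals are a known NLRP3 trigger in macrophages of atherosclerotic plaques. Much of this machinery is controlled after transcription, by assembly and cleavage, which transcript counts do not measure.

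The 10 genes lie on 7 chromosomes in RefSeq's annotation of GRCm38.p6, the assembly behind mm10, which the submitters' processing notes name. Casp1 (chr9:5298517-5307281) and Casp4 (chr9:5308849-5336791) are neighbours, with 1567 bp between the end of the former and the start of the latter. Pycard is compact (chr7:127991373-127993867), and so is Gsdmd (chr15:75862144-75867408). Nlrc4 (chr17:74426255-74459144) shares chromosome 17 with the targeted gene Prkce, from which it is 11.7 Mb away. Nlrp3 lies at chr11:59541569-59566955, Naip5 at chr13:100211735-100250930, and Aim2 (chr1:173349547-173466040), Nek7 (chr1:138483837-138619757) and Casp8 (chr1:58795233-58847503) on chromosome 1. Promoters are shown for the genes whose counts moved with the diet or stood lower in meKO, so that the windows of neighbours and of genes that moved together can be read side by side. RefSeq's promoter table held 9 of the 10 genes, all but Gsdmd. Each sequence is the 250 bases before a start listed there, written 5′ to 3′ along the gene. Casp4 and Nlrp3 had 2 listed starts, and the most 5′ was used. For Nlrc4, Aim2, Casp8 and Naip5 the start used lies inside the gene span given above. The Nlrc4 window overlaps that span in part, and those of Aim2, Casp8 and Naip5 lie within theirs. Capitals mark matches on either strand to 5 motifs of factors that act on macrophage genes.
Pycard, chr7:127993868-127994117, minus strand: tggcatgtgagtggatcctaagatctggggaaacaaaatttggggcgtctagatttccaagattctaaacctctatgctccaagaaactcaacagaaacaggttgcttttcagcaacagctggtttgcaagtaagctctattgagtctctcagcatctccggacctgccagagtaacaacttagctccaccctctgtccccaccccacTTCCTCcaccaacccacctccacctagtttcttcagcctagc
Casp1, chr9:5298267-5298516, plus strand: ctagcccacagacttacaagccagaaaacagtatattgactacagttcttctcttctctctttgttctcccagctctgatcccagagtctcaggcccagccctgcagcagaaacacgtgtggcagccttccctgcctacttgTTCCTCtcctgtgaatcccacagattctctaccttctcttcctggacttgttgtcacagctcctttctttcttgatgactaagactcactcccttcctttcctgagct
Casp4, chr9:5308599-5308848, plus strand: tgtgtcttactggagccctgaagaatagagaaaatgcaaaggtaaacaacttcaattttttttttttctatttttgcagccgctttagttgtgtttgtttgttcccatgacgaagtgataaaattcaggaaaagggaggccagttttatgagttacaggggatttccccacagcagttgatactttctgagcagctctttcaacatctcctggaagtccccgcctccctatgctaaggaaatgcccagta
Nlrc4, chr17:74459109-74459358, minus strand: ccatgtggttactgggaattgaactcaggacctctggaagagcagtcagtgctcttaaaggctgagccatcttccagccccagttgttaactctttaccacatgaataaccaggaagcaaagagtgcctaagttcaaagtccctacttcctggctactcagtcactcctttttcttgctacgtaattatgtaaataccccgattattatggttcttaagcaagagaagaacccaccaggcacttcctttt
Nlrp3, chr11:59541319-59541568, plus strand: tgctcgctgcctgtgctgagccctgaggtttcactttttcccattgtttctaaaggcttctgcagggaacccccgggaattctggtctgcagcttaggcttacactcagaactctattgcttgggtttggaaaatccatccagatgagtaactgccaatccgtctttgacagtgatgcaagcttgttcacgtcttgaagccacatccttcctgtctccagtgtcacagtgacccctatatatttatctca
The motifs were GAGGAA for PU.1, GAAANNGAA for IRF factors, TGANTCA for AP-1, TTCNNNGAA for STAT factors and GGGANNTTC as part of an NF-kB site, where N is any base; no match overlapped another motif. Pycard and Casp1 each hold a PU.1 match on the opposite strand, whose last base along the gene lies 37 and 103 bases before the start. The Casp4, Nlrc4 and Nlrp3 windows held no match to these letters, and neither did those of Naip5, Nek7 and Casp8. The Aim2 window held 2 PU.1 matches and the NF-kB part. The Casp4 window holds ggggatttcccc, which is close to the NF-kB letters without matching them. A window without a match may thus still hold a site. Among 32851 windows of 250 bases in the table, 23.3% held a PU.1 match, 7.13% the IRF, 6.75% the AP-1, 7.02% the STAT and 3.23% the NF-kB letters.

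Some facts of the libraries bear on every value below. Totals ran from 25844958 to 37282772 counts per library. Prkce was low everywhere, at 25 to 151 counts. It was lower in meKO than in WT by 1.17 on the log2 scale (-1.17, exact two-sided permutation test over 924 arrangements, p = 0.00216). The genotypes did not overlap, so this is the smallest p that test can give. With edgeR Prkce did not pass on chow (adjusted p = 0.0794), on HFD (0.989) or averaged over diets (0.0588). WT chow replicates 1 and 2 held the highest counts, 151 and 136, against 71 in replicate 3. Lyz2, the lysozyme gene and a macrophage marker, stood at 30482 to 53835 CPM (counts scaled to library size with TMM factors) in WT and at 16293 to 21309 CPM in 5 meKO libraries, but at 69.3 CPM in meKO chow replicate 2, which stands apart; without that library the same 5 genes passed the test for diet averaged over genotypes. The other 8 macrophage markers summed to 5146 to 6439 CPM in all 12 libraries, beside 140 to 200 CPM for the 6 neutrophil markers in the table, 52.0 to 165 CPM for the 6 B cell markers and 57.1 to 375 CPM for the 7 mast cell markers, both ends of which were in meKO on chow. Counts also followed transcript length in some libraries: the rank correlation of transcript length with how far a library departed from each gene's mean, over 11532 genes, was 0.64 and 0.68 in WT chow replicates 1 and 2 and between -0.46 and 0.13 in the other 10. Values of this trend are given beside the results it moves with.

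Per kilobase of transcript, the levels spanned more than 2 orders of magnitude from caspase to sensor. Casp1 was highest, at 120 ± 18.9 CPM per kb (SD, n = 12 libraries), followed by Casp8 at 41.8 ± 3.73, Pycard at 33.8 ± 6.96, Gsdmd at 28.2 ± 3.72, Nek7 at 25.9 ± 1.98, Casp4 at 25.7 ± 5.20 and Aim2 at 20.0 ± 2.23 CPM per kb. The sensors of bacterial proteins and NLRP3 lay far lower, with Naip5 at 5.85 ± 0.727, Nlrc4 at 2.03 ± 0.469 and Nlrp3 at 0.86 ± 0.201 CPM per kb. From Casp8 through Aim2, neighbours in this order overlapped between libraries, whereas Casp1 at the top and Naip5, Nlrc4 and Nlrp3 at the bottom did not overlap any other gene. The Pycard level uses its RefSeq span of 2495 bases as length; with the longest GENCODE transcript, 3800 bases, it would be 22.2 CPM per kb. Naip5 has the near-identical relatives Naip1, Naip2 and Naip6, and how shared reads were counted is not given in the sources used here, so its level is uncertain.

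Averaged over both genotypes, 5 of the 10 passed the edgeR test at an adjusted p of 0.05: Pycard, Casp1, Casp4 and Gsdmd rose on HFD and Nlrc4 fell. That is the adaptor, both inflammatory caspases and the pore protein on one side, and a sensor on the other. Among all genes tested, 30.2% passed in this comparison, 14.9% higher and 15.3% lower on HFD, so the count stands on a background in which diet calls were common. The median log2 fold change of the 10 was -0.04, beside -0.03 over all genes. In bulk libraries, fewer cells of a type and less RNA per cell cannot be told apart.

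**Figure D1:**
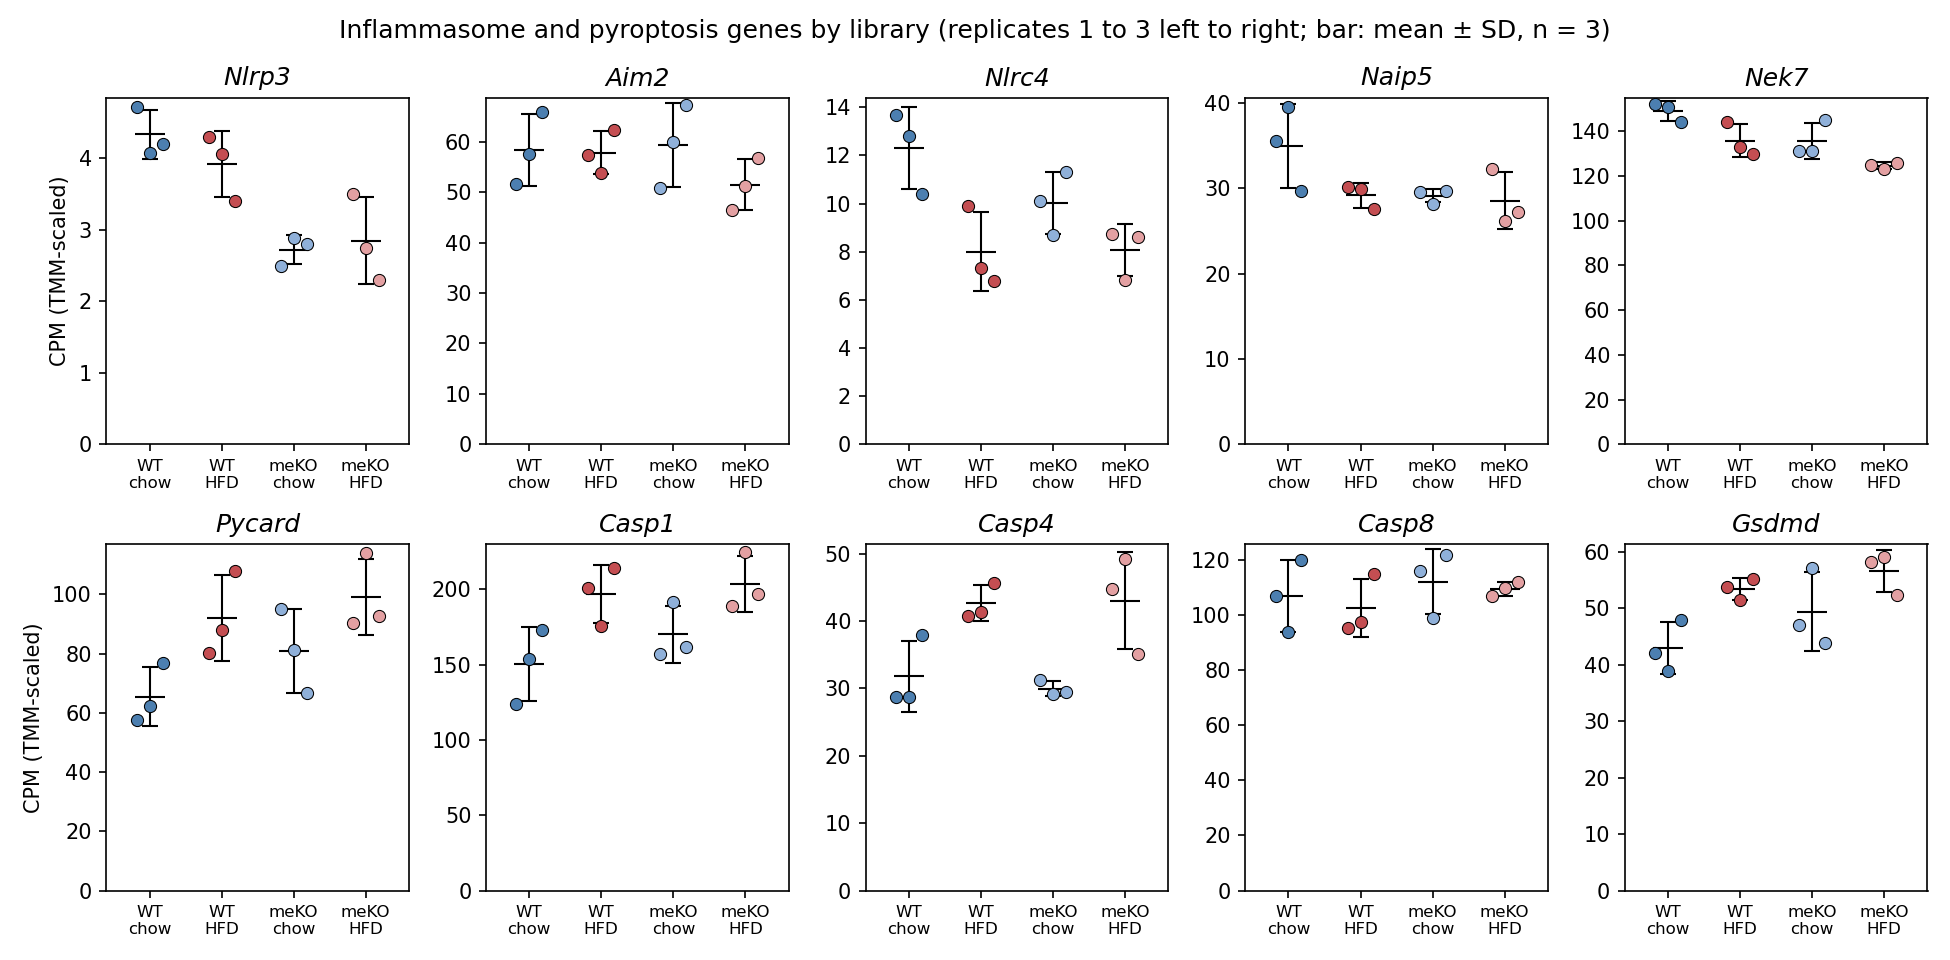
Levels of the 10 genes (vertical axes, TMM-scaled CPM, linear and starting at 0) in each of the 12 libraries by genotype and diet; points are libraries and bars the mean ± SD of 3. Nlrp3 points of meKO on chow (2.49 to 2.88 CPM) sit below those of WT on chow (4.08 to 4.72 CPM), and Casp4 points on HFD sit above those on chow within each genotype.

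Pycard, which encodes the adaptor ASC, stood at 57.5, 62.2 and 76.8 CPM in WT on chow and at 80.1, 87.9 and 108 CPM in WT on HFD. In meKO it stood at 95.1, 81.2 and 66.6 CPM on chow and at 90.5, 114 and 92.8 CPM on HFD. The WT diets did not overlap, while the meKO diets did, since meKO chow replicate 1 lay above 2 of the 3 HFD libraries. On HFD the averaged rise was 1.31-fold (log2 0.39 ± 0.11 SE, edgeR adjusted p = 0.0227). In WT alone it was log2 0.49 ± 0.16 (adjusted p = 0.0457) and in meKO log2 0.29 ± 0.16 (adjusted p = 0.371). Pycard passed the averaged test in 7 of the 12 fits that each left out a single library. It missed the threshold without replicate 1 (adjusted p = 0.061) or 2 (0.0522) of WT chow, replicate 3 of WT HFD (0.0661) or of meKO chow (0.0604), or replicate 2 of meKO HFD (0.0561), with folds of 0.33 to 0.37 on the log2 scale.

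Casp1 encodes the caspase that ASC activates. Its levels were 124, 154 and 173 CPM in WT on chow against 201, 176 and 214 CPM in WT on HFD. Those of meKO were 157, 192 and 162 CPM on chow against 189, 225 and 197 CPM on HFD. Every WT library on HFD exceeded every WT library on chow, by as little as 176 against 173 CPM, and in meKO the highest chow library (192 CPM) passed the lowest on HFD (189 CPM). The averaged rise was 1.25-fold (log2 0.32 ± 0.10, edgeR adjusted p = 0.024). Within a genotype it did not pass, with log2 0.39 ± 0.13 in WT (adjusted p = 0.0528) and 0.25 ± 0.13 in meKO (adjusted p = 0.359). The averaged call held in 6 of the 12 fits that left out a library and was lost, at adjusted p values of 0.0503 to 0.0647, without replicate 1 of WT chow, replicate 1 or 3 of WT HFD or of meKO chow, or replicate 2 of meKO HFD.

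Casp4, the sensor caspase for cytosolic lipopolysaccharide, had the largest rise of the 10 genes in the averaged comparison, though in WT that of Pycard was larger. It lay at 28.7, 28.7 and 37.9 CPM in WT on chow and at 40.8, 41.4 and 45.7 CPM in WT on HFD. In meKO it lay at 31.2, 29.1 and 29.5 CPM on chow and at 44.7, 49.2 and 35.1 CPM on HFD. Diets did not overlap in either genotype, though across genotypes meKO HFD replicate 3 lay below WT chow replicate 3. The averaged rise was 1.39-fold (log2 0.47 ± 0.10, edgeR adjusted p = 0.00786) and passed in all 12 fits that left out a library. In WT it was log2 0.42 ± 0.14 (adjusted p = 0.047), a call that held in 4 of those 12 fits and reached adjusted p = 0.181 without WT chow replicate 1. With transcript length and GC content corrected, this WT value went to -0.0046 (adjusted p = 0.986), and with coding length to 0.35 (0.0745). In meKO it was log2 0.52 ± 0.14 with an unadjusted p of 0.00237 and an adjusted p of 0.161; DESeq2 called it there, at adjusted p = 0.0425. Although both genes are neighbours, Casp1 exceeded Casp4 per kilobase in every library.

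Casp8, which joins death receptor signalling to the inflammasome, showed no call in any of the 7 comparisons. It ran from 94.0 to 120 CPM in WT on chow, 95.6 to 115 CPM in WT on HFD, 99.0 to 122 CPM in meKO on chow and 107 to 112 CPM in meKO on HFD. The averaged diet difference was log2 -0.05 ± 0.08 (edgeR adjusted p = 0.683).

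Gsdmd, whose product forms the pyroptotic pore, measured 42.0, 38.9 and 47.9 CPM in WT on chow and 53.7, 51.4 and 55.2 CPM in WT on HFD. In meKO it measured 47.0, 57.2 and 43.8 CPM on chow and 58.2, 59.1 and 52.3 CPM on HFD. The WT diets were apart, and in meKO a chow library, replicate 2, reached into the HFD range. The averaged rise was 1.19-fold (log2 0.26 ± 0.09, edgeR adjusted p = 0.0377). In WT it was log2 0.32 ± 0.12 (adjusted p = 0.0725) and in meKO 0.20 ± 0.12 (adjusted p = 0.416). This was the least steady of the 5 calls: it held in 3 of the 12 fits that left out a library, namely without replicate 3 of WT chow or of meKO HFD, or replicate 2 of meKO chow, and was lost without any of the other 9, at adjusted p values of 0.053 to 0.0975.

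Nlrc4, the sensor that NAIP proteins engage, was the member that fell. Its levels were 13.7, 12.8 and 10.4 CPM in WT on chow and 9.90, 7.33 and 6.80 CPM in WT on HFD, from 179 to 485 counts per library over all groups. In meKO they were 10.1, 8.71 and 11.3 CPM on chow and 8.74, 6.83 and 8.62 CPM on HFD. WT diets were fully apart, and meKO diets overlapped by a margin of 8.71 against 8.74 CPM. On HFD it fell by 0.47 on the log2 scale (fold size 1.38, SE 0.12, edgeR adjusted p = 0.0166), a call that held in all 12 fits that left out a library. In WT it fell by 0.62 (SE 0.18, adjusted p = 0.029), and 8 of those 12 fits kept the call. It was lost there without replicate 1 (adjusted p = 0.135) or 2 (0.0992) of WT chow, or replicate 2 (0.078) or 3 (0.134) of WT HFD. In meKO the difference was log2 -0.31 ± 0.18 (adjusted p = 0.381). Nlrc4 lies 11.7 Mb from the targeted gene, and whether sequence carried along with that locus touched its counts was not tested; its genotype differences were log2 -0.30 ± 0.17 on chow (adjusted p = 0.343) and 0.01 ± 0.18 on HFD (adjusted p = 0.999).

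Naip5, the flagellin receptor that works with NLRC4, lay at 35.5, 39.5 and 29.7 CPM in WT on chow and 30.1, 29.9 and 27.5 CPM in WT on HFD. In meKO it lay at 28.2 to 29.7 CPM on chow and 26.1 to 32.3 CPM on HFD. WT chow replicates 1 and 2, the libraries with the length trend, held the highest Naip5 values of all 12. The diet difference in WT was log2 -0.26 ± 0.12 (edgeR adjusted p = 0.131), and the averaged difference was -0.14 ± 0.09 (adjusted p = 0.217). Limma-voom with quality weights called both (adjusted p = 0.00922 and 0.0268), and edgeR called the WT difference without WT chow replicate 3 (-0.35, adjusted p = 0.0249). Its relatives gave averaged log2 differences of -0.16 for Naip1, -0.11 for Naip2 and -0.14 for Naip6, none of which passed.

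Nlrp3, the sensor of ion flux and membrane damage, showed no diet call (averaged log2 -0.04 ± 0.13, edgeR adjusted p = 0.858), and its clearest contrast was between genotypes. It was sparse, with 58 to 167 counts per library. On chow, WT libraries held 4.72, 4.08 and 4.20 CPM and meKO libraries 2.49, 2.88 and 2.80 CPM. On HFD, WT held 4.30, 4.06 and 3.40 CPM and meKO 3.50, 2.75 and 2.30 CPM. The genotypes did not overlap on chow; on HFD meKO replicate 1 reached just above WT replicate 3. The difference was log2 -0.67 ± 0.19 on chow (unadjusted p = 0.00332, adjusted p = 0.115) and -0.45 ± 0.19 on HFD (unadjusted p = 0.0331, adjusted p = 0.999). Averaged over diets it was -0.56 ± 0.13, a fold size of 1.48, with an unadjusted p of 9.60e-04 that did not pass the adjustment over all genes (0.118). This result depended on the tool: DESeq2 gave adjusted p values of 0.0377 on chow and 0.0174 averaged, and limma-voom with library quality weights gave 0.00947 and 0.00211. Without WT chow replicate 3, edgeR also passed it, at 0.0405 on chow and 0.0276 averaged. The WT chow group of that fit was replicates 1 and 2, the libraries with the length trend. With any of the 3 length and GC corrections, neither the chow nor the averaged difference passed. On chow the difference ran from -0.75 to -0.43 over 23 alternatives. Without meKO chow replicate 2, the library low in Lyz2, the averaged difference was -0.58 (adjusted p = 0.23). The sign held in all 22 alternatives for the averaged difference, which ran from -0.70 to -0.42.

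Nek7, the kinase that NLRP3 needs to assemble, varied little: 152, 151 and 144 CPM in WT on chow, 144, 133 and 130 CPM in WT on HFD, 131, 131 and 145 CPM in meKO on chow and 125, 123 and 126 CPM in meKO on HFD. The averaged diet difference was log2 -0.13 ± 0.06 (edgeR adjusted p = 0.129) and the averaged genotype difference -0.13 ± 0.06 (adjusted p = 0.307). On HFD, each meKO library lay below each WT library. Aim2, the sensor of cytosolic DNA, spread as widely within groups as between them. It ran from 51.6 to 65.9 CPM in WT on chow, 53.9 to 62.3 CPM in WT on HFD, 50.8 to 67.3 CPM in meKO on chow and 46.5 to 56.8 CPM in meKO on HFD, with an averaged diet difference of log2 -0.11 ± 0.09 (adjusted p = 0.383).

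**Figure D2:**
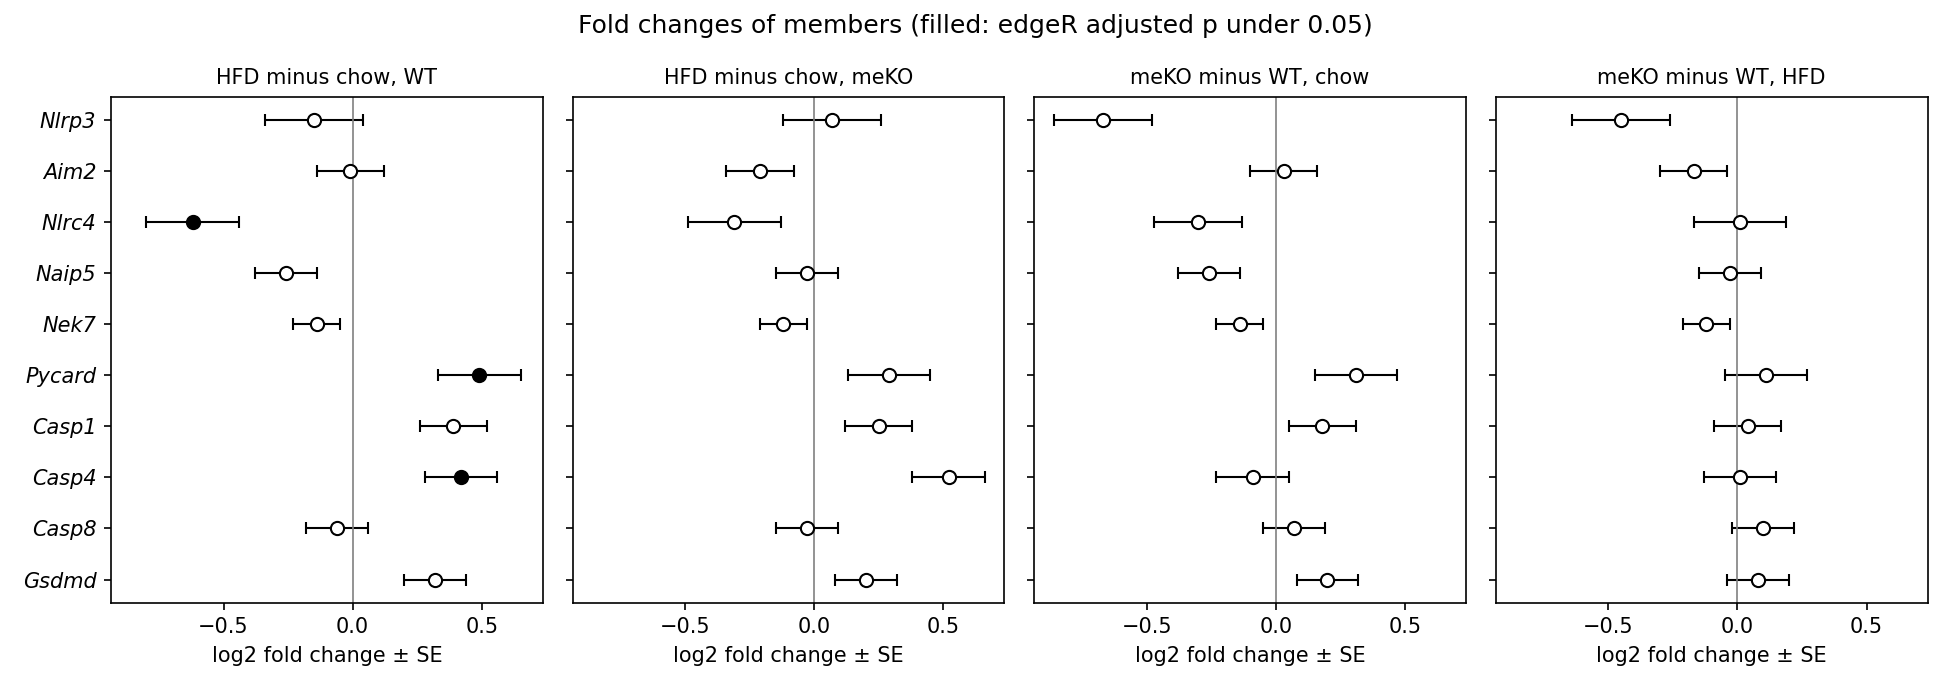
Log2 fold changes ± SE (horizontal axes) of the 10 genes from the edgeR fit, for diet in each genotype and genotype on each diet; filled points passed an adjusted p of 0.05. Filled points are Nlrc4 (-0.62), Pycard (0.49) and Casp4 (0.42) for diet in WT, and no point is filled in the other 3 panels, where Nlrp3 lies leftmost for genotype (-0.67 and -0.45).

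Set out by comparison, the edgeR calls among the 10 genes were all for diet. In WT, 3 of the 10 genes passed, 2 higher (Pycard, Casp4) and 1 lower (Nlrc4) on HFD, against a background of 21.3% of all genes, 9.5% higher and 11.8% lower. Groups did not overlap for 5 of the 10 in WT, 4 higher and 1 lower, against 39.3% of all genes. In meKO, 0 passed with edgeR, 1 had an unadjusted p under 0.05 (Casp4), DESeq2 called 1 and limma-voom 0; 0.105% of all genes passed. The diets did not overlap in meKO for Casp4 (higher) and Nek7 (lower), 2 of the 10, against 19.7% of all genes. Read against those shares, the 10 genes are not set apart from the rest by their count of calls in WT, and few genes of any kind passed in meKO.

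A call in WT and none in meKO does not show that the genotypes answered the diet differently. The genotype by diet interaction, which tests that difference, passed for 0 of the 10 with edgeR, 0 had an unadjusted p under 0.05, and DESeq2 and limma-voom called 0; 0.0162% of all genes passed. The largest interaction terms were log2 0.31 ± 0.25 for Nlrc4 (adjusted p = 0.838), 0.23 ± 0.17 for Naip5 (0.817) and 0.22 ± 0.27 for Nlrp3 (0.876). Their errors are as large as many of the diet effects themselves.

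Between genotypes, 0 of the 10 passed with edgeR on chow, where 1 (Nlrp3) had an unadjusted p under 0.05, DESeq2 called 1 and limma-voom 4 (Nlrp3, Naip5, Nlrc4 and Pycard); 0.081% of all genes passed. Genotypes did not overlap on chow for Nlrp3 and Naip5, both lower in meKO, against 17.1% of all genes. On HFD 0 passed, 1 (Nlrp3) had an unadjusted p under 0.05, and DESeq2 and limma-voom called 0, with a background of 0.081% as on chow; the genotypes were apart for Nek7, 1 of the 10, against 10.3% of all genes. Averaged over diets 0 passed, 1 (Nlrp3) had an unadjusted p under 0.05, DESeq2 called 1 and limma-voom 4 (Nlrp3, Nek7, Naip5 and Pycard), with 0.17% of all genes passing. Aside from Nlrp3 and the Pycard difference on chow (log2 0.31 ± 0.16, edgeR adjusted p = 0.295), every genotype difference of a member was at most 0.30 in size.

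Pycard aside, the genes that rose had the shortest transcripts of the 10. Casp1 (1497 bases), Casp4 (1435) and Gsdmd (1792) have short transcripts, while Nlrc4 (4729), Naip5 (5204), Nek7 (5258) and Nlrp3 (4021) have long ones, with Casp8 (2585) and Aim2 (2839) between. Pycard is uncertain, with a coding length of 579 bases, a RefSeq span of 2495 and a longest GENCODE transcript of 3800. Across 11532 genes, Spearman's rho between log2 fold change and transcript length was -0.52 for diet averaged, -0.57 for diet in WT, -0.34 for diet in meKO, -0.64 for genotype on chow and -0.26 for genotype on HFD. The members' directions thus ran with the length trend of the whole table.

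With length and GC content corrected gene by gene, 2 of the 5 averaged diet calls held: Nlrc4 (log2 -0.34, edgeR adjusted p = 0.0294) and Pycard (0.45, adjusted p = 0.0279). Casp1 went to 0.01 (adjusted p = 0.927), Casp4 to 0.16 (0.211) and Gsdmd to 0.16 (0.0949). The choice of length mattered. With coding length in the correction, Casp1 (0.28, adjusted p = 0.016), Casp4 (0.42, 0.00781) and Gsdmd (0.32, 0.0189) passed, Nlrc4 (-0.27, 0.0601) and Pycard (0.19, 0.109) did not, and Nek7 passed as lower (-0.25, 0.0317). With transcript length limited to the RefSeq gene span, Nlrc4 (-0.33, 0.031) and Pycard (0.30, 0.0449) passed. Leaving out both WT chow libraries with the length trend left replicate 3 alone in WT chow. A loss of calls in that fit cannot be told from the loss of libraries, so its calls are not compared. The log2 values there were Casp4 0.35, Nlrc4 -0.35, Pycard 0.28, Casp1 0.22 and Gsdmd 0.18. Each was smaller in size than with all libraries (0.47, -0.47, 0.39, 0.32 and 0.26). The sign of these 5 genes in the averaged comparison was the same under all 22 alternatives, and their size was not.

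**Figure D3:**
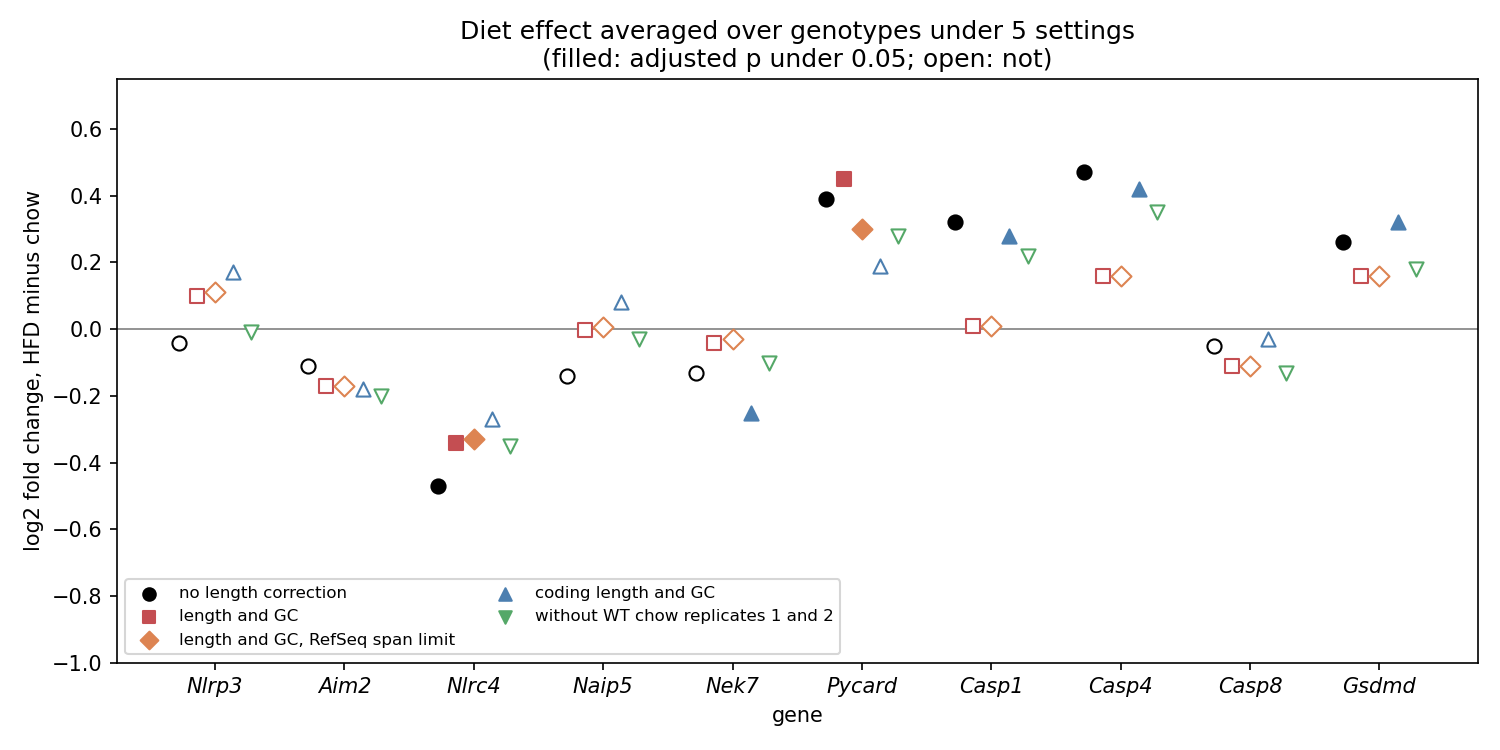
Log2 fold change for HFD minus chow averaged over genotypes (vertical axis) of each of the 10 genes (horizontal axis) under 5 settings: no length correction, 3 corrections for length and GC content, and WT chow replicates 1 and 2 left out; filled symbols have an adjusted p under 0.05. Casp1 falls from 0.32 to 0.01 under the correction by transcript length and stays at 0.28 with coding length. With both libraries left out, WT chow holds replicate 3 alone, so the filling of those symbols is not comparable with the other settings.

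Markers of other cells also moved with the diet. The 7 mesothelium and fibroblast markers summed to 42.3 to 77.2 CPM in the 6 chow libraries and 73.4 to 114 CPM in the 6 HFD libraries, with a slight overlap. The 6 B cell markers in the table summed to 107 to 165 CPM in WT on chow and 52.0 to 87.5 CPM in WT on HFD, and overlapped between diets in meKO (73.3 to 161 and 55.7 to 111 CPM). The 6 dendritic cell markers summed to 31.3 to 46.7 CPM in WT on chow and 15.9 to 24.3 CPM in WT on HFD, and to 22.1 to 43.9 and 23.4 to 35.8 CPM in meKO. In WT the sum of the 6 neutrophil markers was also lower on HFD without overlap (156 to 200 CPM on chow, 140 to 150 CPM on HFD). Within that sum, mean Csf3r (110 to 72.8 CPM) and Retnlg (8.73 to 4.5 CPM) fell. Mean S100a8 (10.4 to 17.5 CPM), S100a9 (0.298 to 0.843 CPM), Mmp8 (44.0 to 48.3 CPM) and Cxcr2 (0.255 to 0.313 CPM) rose instead. The 3 eosinophil markers in the table were lower on HFD in WT without overlap as well (19.9 to 28.0 and 14.1 to 19.0 CPM). Both sums overlapped between diets in meKO. The 8 T and NK cell markers were apart in meKO, higher on HFD (21.8 to 30.3 and 31.0 to 32.5 CPM), and overlapped in WT. The 8 macrophage markers other than Lyz2 summed to 5758 to 5909 CPM in WT on chow and 5146 to 5751 CPM in WT on HFD, lower and just apart, and overlapped in meKO (5761 to 6439 and 5194 to 5995 CPM). The part of these cells in the results was not tested.

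Around these 10 genes, 92 others of the pathway were listed in 7 groups, and 85 of them were in the table. Averaged over genotypes, 12 of the 85 were called higher and 10 lower on HFD, 22 in all beside 30.2% of all genes, and their median log2 fold change was -0.05. In WT alone 10 were higher and 10 lower, 20 of 85 beside 21.3% of all genes. With edgeR 0 of the 85 passed for diet in meKO (13 had an unadjusted p under 0.05), for genotype on chow (17), on HFD (3) or averaged (13), or for the interaction (6).

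Of 12 cytokines and their receptors, 5 rose and 0 fell in the averaged comparison, beside 14.9% and 15.3% of all genes, and the list's median was log2 0.30 beside -0.03. Il1rn, which encodes the interleukin-1 receptor antagonist, lay at 209, 147 and 185 CPM in WT on chow, 228, 335 and 453 CPM in WT on HFD, 173, 208 and 123 CPM in meKO on chow and 289, 546 and 436 CPM in meKO on HFD. No chow library reached an HFD library, and the rise was 2.18-fold (log2 1.12 ± 0.19, edgeR adjusted p = 0.00444). Il18bp, the secreted blocker of interleukin-18, rose by log2 0.70 ± 0.15 (adjusted p = 0.00792), from 5.63 to 12.4 CPM on chow to 9.85 to 15.0 CPM on HFD. The interleukin-1 receptor gene Il1r1 rose by 0.89 ± 0.19 (edgeR adjusted p = 0.00824) from a low level. It lay at 1.28 to 2.60 CPM on chow and 2.89 to 4.81 CPM on HFD, and kept its call in all 12 fits that left out a library. Il33, an alarmin of the same cytokine family, rose by 0.97 ± 0.27 (edgeR adjusted p = 0.0188) at 0.396 to 1.75 CPM. The Il33 call was lost without replicate 1 of WT chow (0.0518) or replicate 3 of WT HFD (0.0528). Mesothelium and fibroblast markers were also higher on HFD, and which cells the Il1r1 and Il33 counts came from was not tested. The cytokine substrates of caspase-1 did not pass: Il1b was at 1.81 to 6.25 CPM (averaged log2 0.01 ± 0.23, adjusted p = 0.977) and Il18 at 12.6 to 23.6 CPM (0.27 ± 0.13, adjusted p = 0.111). Il1a, which pyroptotic cells also release, ran from 32.3 to 74.3 CPM (0.33 ± 0.14, adjusted p = 0.0989).

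Of 8 genes for pores and membrane repair, 4 rose and 1, Pdcd6ip, fell, beside 14.9% and 15.3% of all genes. The 4 belong to the ESCRT machinery, which sheds damaged membrane and is known to limit gasdermin pores: Chmp2a (log2 0.51 ± 0.12, edgeR adjusted p = 0.00993), Chmp3 (0.30 ± 0.08, 0.0183), Chmp4b (0.23 ± 0.07, 0.0358) and Vps4a (0.20 ± 0.07, 0.0438). Chmp2a lay at 112 to 179 CPM on chow and 175 to 260 CPM on HFD. Chmp2a kept its call in all 12 fits that left out a library, Chmp3 in 9 (adjusted p = 0.0506 to 0.0535 without replicate 1 of WT chow or replicate 3 of WT HFD or meKO chow), and Chmp4b and Vps4a in 3 each, so that the last pair rested on most single libraries. With transcript length and GC content corrected, Chmp2a went from 0.51 to 0.20 and still passed (0.0175), while Chmp4b (0.10, 0.131) and Vps4a (0.14, 0.0613) did not; with coding length Chmp3 (0.14, 0.0783) did not. Pdcd6ip, which encodes the ESCRT accessory ALIX, changed by -0.30 ± 0.11 (adjusted p = 0.048), and Vps4b, the paralog of Vps4a, was at -0.05 ± 0.06 (0.595). Ninj1, which encodes the protein that ruptures the membrane after pore formation, ran from 250 to 537 CPM and did not pass (0.16 ± 0.13, adjusted p = 0.349).

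Of 14 activators of NLRP3, 4 fell and 0 rose in the averaged comparison, beside 15.3% and 14.9% of all genes. Among these, P2rx7, the channel through which extracellular ATP triggers NLRP3, lay at 130, 120 and 106 CPM in WT on chow and 81.0, 87.7 and 68.1 CPM in WT on HFD. In meKO it lay at 97.3, 83.0 and 109 CPM on chow and 80.9, 72.0 and 82.3 CPM on HFD. Each genotype's diets were apart, and the averaged level fell by 0.44 on the log2 scale (SE 0.09, edgeR adjusted p = 0.0074). The others were Gbp5 (log2 -0.88 ± 0.19, adjusted p = 0.00886), a guanylate binding protein at 1.11 to 4.79 CPM, and the transport factors Mark4 (-0.60 ± 0.14, 0.0107) and Hdac6 (-0.53 ± 0.14, 0.0158). The length and GC correction moved P2rx7 to -0.26 (0.0145), Mark4 to -0.39 (0.00861) and Hdac6 to -0.33 (0.0328) and left Gbp5 at -0.88 (0.00695); with coding length Hdac6 did not pass (-0.28, 0.0574). Txnip, a redox-linked NLRP3 activator, did not pass (-0.16 ± 0.09, adjusted p = 0.208; 392 to 547 CPM).

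Of 12 further sensors and receptors, Nlrp1b alone passed for diet averaged over genotypes, falling by 0.80 (SE 0.23, edgeR adjusted p = 0.02), and its call was lost without replicate 2 of WT chow (0.053) or replicate 3 of WT HFD (0.0555). Of 11 genes listed here as brakes on the inflammasome, Card6 was the single averaged call (log2 -0.57 ± 0.12, edgeR adjusted p = 0.00755). Whether they act as brakes in these cells was not tested. In WT alone Sirt2, a deacetylase, was also called higher (0.33 ± 0.10, 0.0372) and Cflar, the inhibitor of caspase-8, lower (-0.44 ± 0.14, 0.0408). The Sirt2 call held in 7 of the 12 fits that left out a library and was lost with library totals or the contrast's libraries alone. The Cflar call held in 4 of those 12 fits. It was lost with the length and GC correction by transcript length or RefSeq span, and kept with coding length. Its log2 values ran from -0.59 to -0.04 over all alternatives. Of 13 cell death caspases and kinases the averaged call was Casp2, an initiator caspase (-0.57 ± 0.12, adjusted p = 0.00893). Of 15 priming and upstream transcription genes, 3 rose and 2 fell. The interferon regulatory factors split: Irf7 (0.62 ± 0.12, adjusted p = 0.00565) and Irf3 (0.35 ± 0.08, 0.0099) rose, while Irf8 (-0.53 ± 0.11, 0.0074) and Irf2 (-0.51 ± 0.13, 0.0132) fell. IRF2 is known to drive Gsdmd transcription, and IRF8 is known to drive Nlrc4 and Naip transcription in mouse macrophages. Irf8 lay at 94.7 to 139 CPM on chow and 64.8 to 94.8 CPM on HFD. Spi1, which encodes PU.1 and was named after its value was seen, rose (0.26 ± 0.08, adjusted p = 0.023). Il1r2, the decoy interleukin-1 receptor, rose as well (0.76 ± 0.24, 0.0319), at only 8 to 47 counts per library (0.226 to 1.28 CPM). Its diets overlapped in meKO (0.651 to 0.899 CPM on chow, 0.763 to 1.28 CPM on HFD). In WT alone it was called (1.16 ± 0.36, 0.0386), in 6 of the 12 fits that left out a library. That WT call was lost with the length and GC correction by transcript length. Of the 22 averaged calls, 19 were examined with both length-trend WT chow libraries left out. WT chow then held replicate 3 alone, so calls in that fit are not compared. Several folds were about as large there: Il1rn 1.10, Il33 1.10, Gbp5 -0.97 and Irf7 0.61. Others were smaller, such as Chmp2a at 0.36 and Hdac6 at -0.36.

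**Figure D4:**
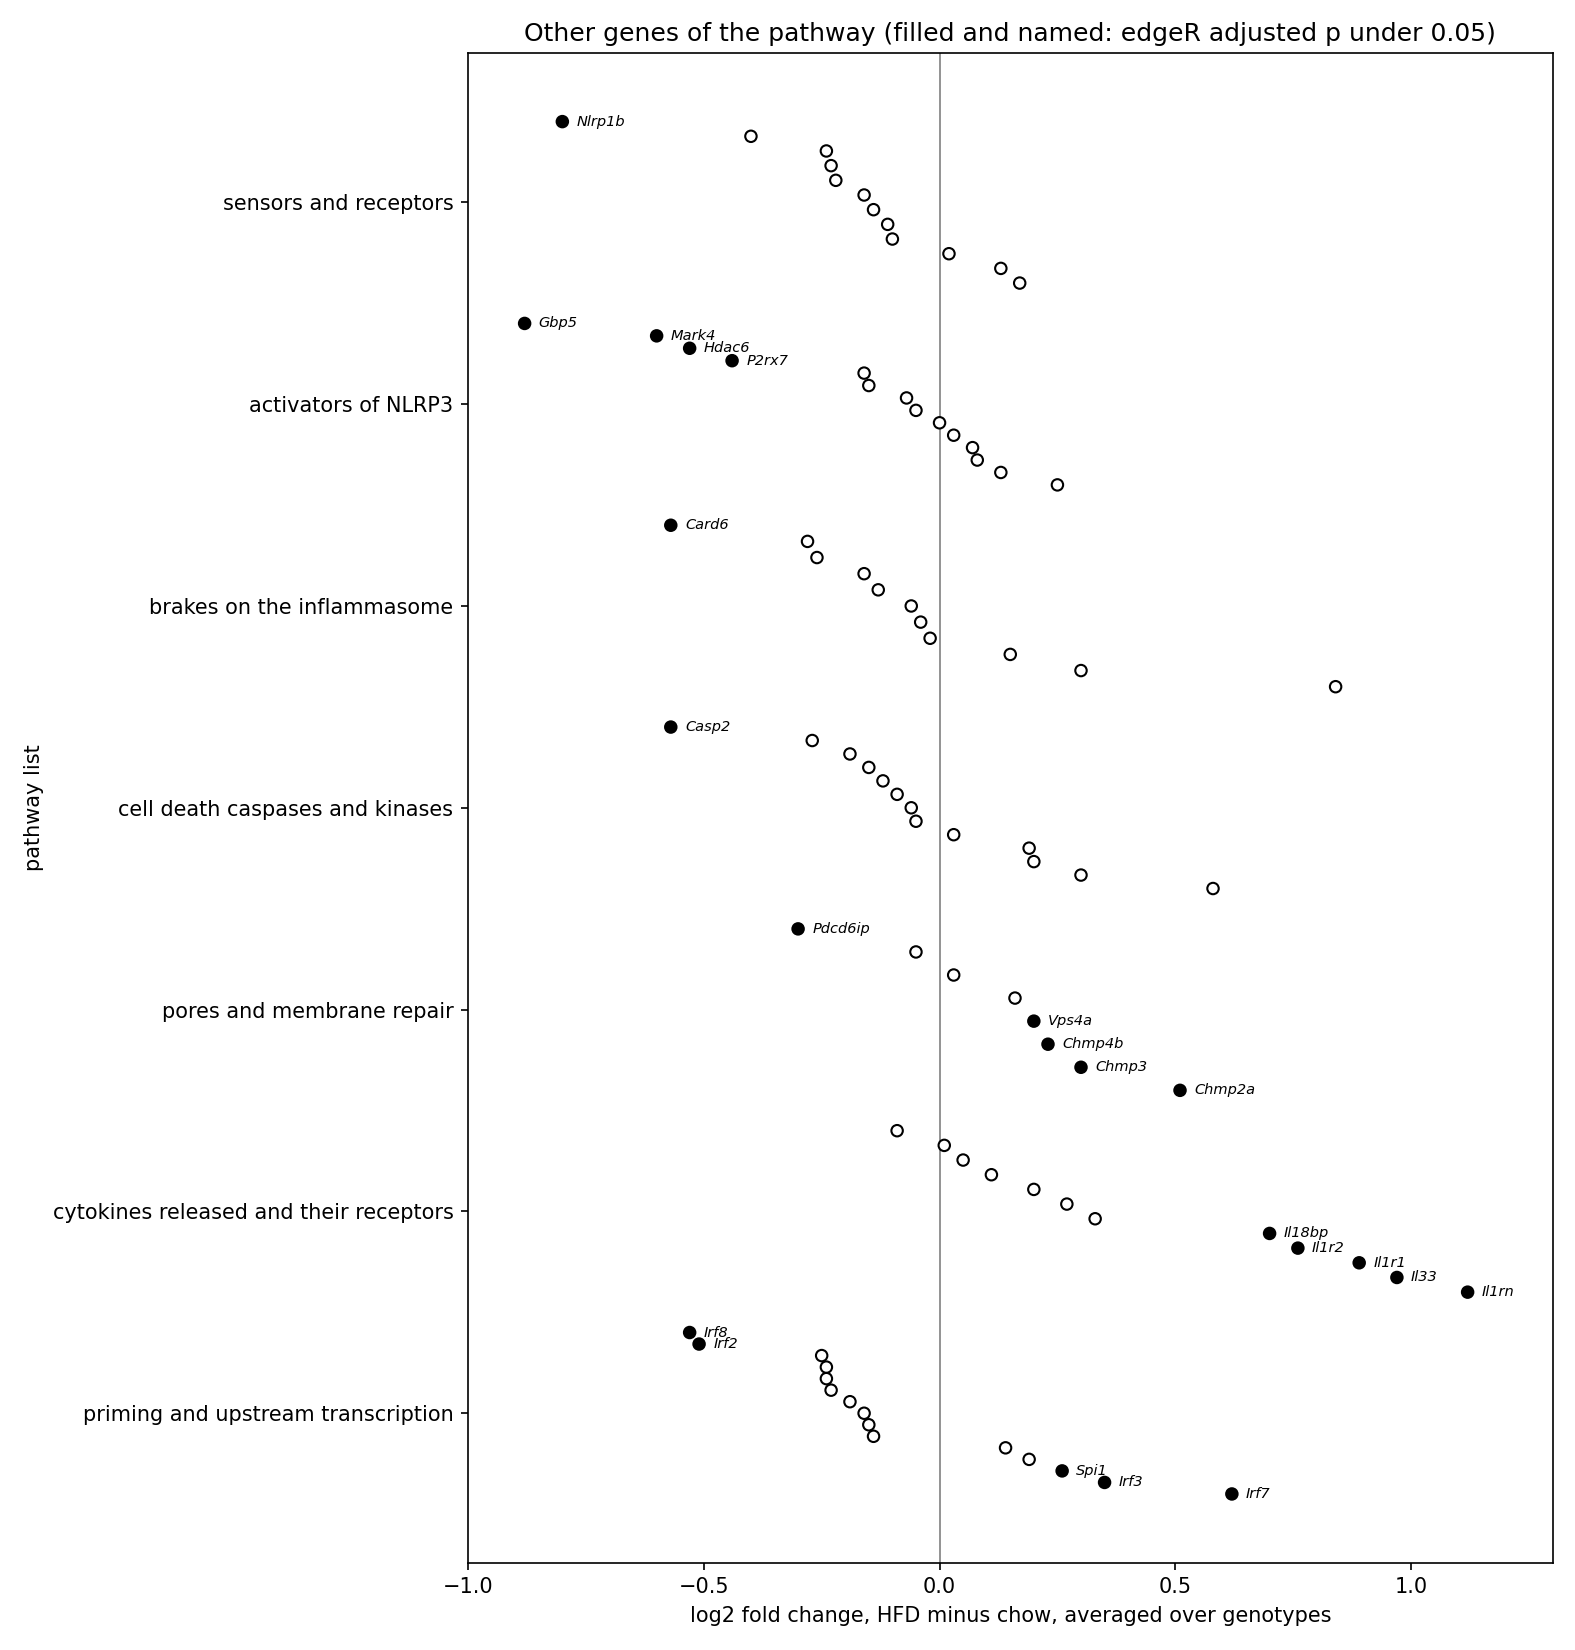
Log2 fold change for HFD minus chow averaged over genotypes (horizontal axis) of the 85 other pathway genes, 1 point a gene, by list (vertical axis); filled and named points have an edgeR adjusted p under 0.05. All 5 filled cytokine and receptor points lie on the right, up to Il1rn at 1.12, and all 4 filled NLRP3 activator points lie on the left, down to Gbp5 at -0.88.

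The patterns across the 12 libraries can be compared with those of other genes through Pearson's r of log2 CPM, given as a description, since all points share library depth and the length trend. With genes under a mean of 5 CPM set aside, Nlrc4 was most like Vps26b (r = 0.978), Galc (0.958) and Dyrk1b (0.955). Naip5 was most like Baz2a (0.982), Tle4 (0.973) and Ncoa1 (0.972), all with transcripts of 4545 to 8443 bases. Pycard was most like Clic1 (0.973), Metrnl (0.973) and Dbi (0.971), all with transcripts of 569 to 1466 bases. The genes most like Naip5 thus had long transcripts and those most like Pycard short ones. Casp1 was most like Dcun1d5 (0.973), Fam241a (0.971) and Fam32a (0.967), whose transcripts of 2234 to 2564 bases are longer than its own 1497. Casp4 was most like Rpl35a (0.939), Ybx3 (0.926) and Slamf9 (0.918), with transcripts of 519 to 1853 bases. Gsdmd was most like Fdxacb1 (0.961, 2658 bases), Isg20 (0.956, 1087 bases) and Gm6623 (0.935), and Nek7 most like Ddx3x (0.949), Iqgap2 (0.942) and Mbtd1 (0.94). Nlrp3 (Calcrl 0.919 and Fosl2 0.914), Aim2 (2010315B03Rik 0.902, Pus10 0.889 and Rnf2 0.876) and Casp8 (Sp110 0.909, Cd80 0.909 and Rhno1 0.887) had lower likeness to their nearest genes.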

How the data were processed

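Per the labels' protocols, Trizol RNA went into TruSeq libraries. The authors deposited raw counts by gene for each library, with gene symbols and Entrez identifiers; the submitters' processing notes name mm10 and DESeq2, and the aligner, counter and strand setting are not given in the sources used here. Rows without a symbol, 186, hold 0.44% of the counts. Groups come from the sample titles, and replicate numbers pair nothing. The test was edgeR 4.0.16 (R 4.3.3), with TMM factors, filterByExpr (which kept all 12339 genes), robust quasi-likelihood fits of 4 group means to 12 libraries, 7 contrasts, two-sided, and Benjamini-Hochberg adjustment over all genes, with calls at an adjusted p under 0.05. The script was checked on simulated counts. Alternatives were other scaling factors and filters, DESeq2 1.42.0, limma 3.58.1 voom with library quality weights, length and GC corrections (splines with 4 degrees of freedom; GENCODE lengths, 11532 genes), the contrast's libraries alone, and each library left out. The corrections by coding length (11397 genes) and RefSeq span, and leaving out WT chow replicates 1 and 2 together, were chosen after seeing the data. Members and lists were chosen with earlier results of these data known. Named pathway genes were Il1b, Il18, Il1a, Il1rn, Ninj1, P2rx7, Txnip and up to 4 called genes of smallest p per list and contrast; likeness names the 3 genes of highest r (log2 of CPM plus 0.5). For Nlrp3, 1 of these is not reported here.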

Additional observations from a re-analysis of the deposited data

How the results depend on the processing

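Of the 10 genes, 3 were called for diet in WT. These became 4 (Casp1 added) with median-of-ratios factors or at least 10 counts in every library, 1 with library totals, 5 with DESeq2 and 6 with voom quality weights. They became 0 with the length and GC correction, 0 with it limited to the RefSeq span and 2 (Casp1 and Gsdmd) with coding length. The contrast's libraries alone gave 1, and leaving out single libraries gave 0 to 6. For diet averaged over genotypes, 5 became 6 with voom (Naip5 added) and 4 with coding length (Nlrc4 and Pycard lost, Nek7 gained). They became 2 with the length and GC correction, 2 with the RefSeq span and 2 to 5 with a library left out. Library totals exchanged Gsdmd for Nek7. Calls without WT chow replicates 1 and 2 are not counted here, since WT chow then held replicate 3 alone. For diet in meKO, 0 became 1 with DESeq2 and stayed 0 with any library left out. For genotype on chow, 0 became 1 with DESeq2, 4 with voom and 0 to 2 with a library left out, the 2 (Nlrp3, Naip5) without WT chow replicate 3. For genotype averaged, 0 became 1 with DESeq2, 4 with voom and 0 to 1 with a library left out. Genotype on HFD and the interaction stayed at 0. The Prkce log2 ratio ran from -1.26 to -1.03 with a library left out. Some signs turned: Nlrp3 for diet averaged was 0.10, 0.17 and 0.11 with the correction by transcript length, coding length and RefSeq span, and -0.13 to 0.03 with a library left out, above 0 without WT chow replicate 1 (0.0021), WT HFD replicate 3 (0.01) and meKO HFD replicate 3 (0.03); Naip5 was 0.08 with coding length and 0.0056 with RefSeq span for diet averaged, 0.10 for diet in WT, 0.07 for genotype on chow and -0.02 for the interaction with coding length, and -0.0027 for the interaction without WT chow replicates 1 and 2; for diet in WT, Casp1 went from 0.39 to -0.04 under both transcript and span corrections and Casp4 from 0.42 to -0.0046 and -0.0023. The cause was not tested. No paired analysis was possible because the labels give no replicate numbers. Nlrp3, at 58 to 167 counts, is the member whose precision depth limits most.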
